A study of Mus musculus with 3 samples.

Results

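The second hour of isoproterenol (ISO) was read in differentiated brown adipocytes as the ratio of the signal at 2 h to the signal at 1 h. The cells were iBATs, a line made from stromal cells of the interscapular brown fat of newborn C57BL/6 mice by retroviral SV40 large T antigen, and no other genetic change is named for the arrays. All 3 arrays held total RNA of iBATs on day 8 after induction with insulin and indomethacin, and they differed in the time with ISO, an agonist of all β-adrenergic receptors, which was 0, 1 or 2 h. Each time point had 1 array, so a difference between times has no replicate error, no test was possible, and the culture cannot be told apart from the time. The 0 h array is given as context.

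The values are MAS5 signals, linear intensities computed from the 3′ probe sets of an Affymetrix mouse array. Members were the genes of probe sets with exactly 1 gene symbol and a signal of at least 100 at 1 h or at 2 h, each read from the probe set with the highest mean of those 2 arrays. These were 6695 genes of the 18194 that had a probe set with a single symbol. A gene was called higher or lower where 2 h over 1 h reached 2^0.8-fold, which is 1.74-fold, the threshold that the study set for 1 h. A gene under 100 on one of the 2 arrays was read only because of its signal on the other, so its difference was in part fixed by the rule.

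A β-adrenergic receptor on a brown adipocyte raises cyclic AMP, and protein kinase A then phosphorylates CREB and other proteins on chromatin and in the cytoplasm. The first genes to respond need no new protein. Many of them encode short-lived transcription factors and brakes on the same signal, so their mRNAs come and go quickly, while genes that depend on those factors or on secreted cytokines respond later. In brown fat the response includes Ucp1, which uncouples respiration from ATP synthesis, and Ppargc1a, a coactivator of mitochondrial and thermogenic genes.

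Genes of adipocytes were bright on all 3 arrays, and so were some markers of preadipocytes and fibroblasts. Fabp4, which carries fatty acids in adipocytes, had signals of 7490.0, 7871.8 and 7095.6 at 0, 1 and 2 h, and Adipoq, the adiponectin gene, had 4986.4, 5329.8 and 4388.8. The summed signal of 10 adipocyte identity genes was 18779.5, 22466.7 and 21344.4. That of 10 preadipocyte and fibroblast markers was 16426.1, 16683.5 and 15428.2. None of 9 macrophage and leukocyte markers and none of 8 endothelial markers reached 100 at 1 or 2 h. The summed signal of the 9 macrophage and leukocyte markers was 144.0, 145.2 and 225.3, of which Cd14 made 34.6, 41.8 and 93.2 and Cd68 made 58.9, 54.5 and 81.2, while Ptprc, which marks all leukocytes, stayed between 0.6 and 0.9. The part of such cells in the rises was not tested. Of 9 muscle markers Mb alone was read, with signals of 788.1, 669.7 and 574.3. Fewer cells of a type and less RNA per cell cannot be told apart in bulk RNA. The 3′ probe set of Actb exceeded the 5′ one by 1.61-, 1.61- and 1.60-fold, and 11 spike-in control probe sets had a median log2 ratio of −0.19 for 2 h over 1 h, from −0.31 to −0.01.

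In the second hour 45 genes were higher, which is 0.672% of those read, and 22 were lower, which is 0.329%. The median log2 ratio of 2 h over 1 h over all 6695 genes was −0.04 and its robust spread was 0.18. At 2-fold or more, 25 genes were higher and 10 lower. With the 3 arrays set to the same median, which moved the all-gene median to −0.12, the counts were 35 and 27. Over the same genes, 110 had been higher at 1 h than at 0 h (1.64%) and 12 lower (0.179%). Both steps contain the 1 h array, so an error on it would move them in opposite directions.

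Combining the calls of both hours gave the course of each gene. Of the genes that rose in the first hour, 11 kept rising past the threshold, 90 held in the sense that the second step was below the threshold, and 9 fell back. A further 31 genes started to rise in the second hour, 3 recovered from a first-hour fall, and 13 fell in the second hour only. The remaining genes were 9 that fell and held and 6529 with neither step. The plot of both steps shows the genes that fell back strung out to the right below the lower line, and the late genes stacked above the middle.

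**Figure D1:**
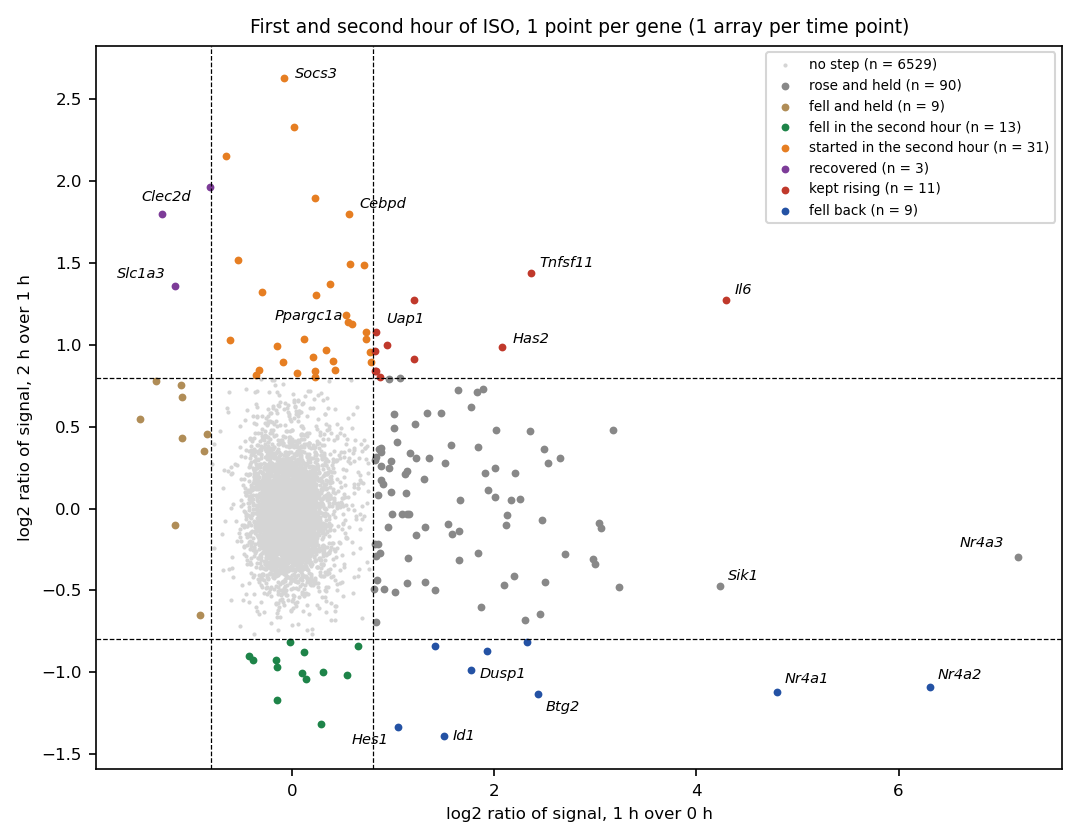
Log2 ratio of MAS5 signal at 1 h over 0 h (horizontal axis) against 2 h over 1 h (vertical axis), 1 point per gene, coloured by course, with dashed lines at the threshold of 0.8 in each direction. Socs3 stands highest, at 2.63 with no first-hour rise, and Nr4a1 and Nr4a2 lie far to the right at −1.12 and −1.09.

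The 9 genes that fell back included transcription factors, inhibitors of transcription factors and feedback enzymes. Nr4a1, an orphan nuclear receptor of the immediate early response, had signals of 79.4, 2204.4 and 1015.2 at 0, 1 and 2 h. Its 2 h signal was below the 1 h signal by 2.17-fold, a log2 ratio of −1.12, and 56.0% of its first-hour rise was gone. Nr4a2, of the same family, went from 5.8 to 459.6 and then to 216.0, a second step of −1.09, and its 3 other kept probe sets gave −1.37, −1.04 and −0.92. Those at −1.04 and −0.92 had 59.5 and 67.4 at 2 h and were kept only through their 1 h signals. For both receptors the 2 h array stayed far above the 0 h array. Nr4a3, the third member, had signals of 3.9, 566.5 and 460.6, a second step of −0.30 that did not reach the threshold.

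Id1, an HLH protein that binds and blocks basic HLH factors, had the largest fall, with signals of 286.5, 811.6 and 309.5 and a log2 ratio of −1.39. It lost 95.6% of its rise and so stood near its 0 h signal again. Hes1, a transcriptional repressor of the Notch pathway, had signals of 77.2, 159.4 and 63.1, a step of −1.34, and was the only one of the 110 first-hour risers whose 2 h signal lay below that at 0 h. Its fall counted on a 2 h signal under 100, and with such signals set to 100 its step was −0.67. Id4, a relative of Id1, had signals of 22.7, 114.0 and 64.8 and a step of −0.81, which became −0.19 with the same change. Id3 had 202.5, 1110.7 and 711.5 and a step of −0.64. In the list of ID proteins and BMP, TGF-beta and Notch feedback, 3 of 11 members read were lower, against 0.329% of all genes, and none was higher. Of the lower members, Hes1 and Id4 were read only through their 1 h signals, and with signals under 100 set to 100 only 1 member was lower. The median first step of the list was 1.05, and of the 110 first-hour risers 9 were lower in the second hour. In that list 8 had ratios below 0, and the median was −0.33 against −0.04 over all genes.

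The other genes that fell back included brakes on growth signals. Dusp1, a phosphatase that inactivates MAP kinases, had signals of 341.4, 1163.5 and 588.5, a step of −0.98 that removed 69.9% of the rise. Btg2, an antiproliferative protein that promotes mRNA deadenylation, had 85.6, 461.6 and 210.6, a step of −1.13, with −0.68 in its other probe set. Per1, a repressor of the circadian clock that is also a CREB target, had 71.5, 272.4 and 149.1, a step of −0.87. Osgin1, an oxidative stress response gene, had 37.9, 101.0 and 56.4, and its step of −0.84 became −0.01 with signals under 100 set to 100. Apart from Hes1, each of the genes that fell back kept a 2 h signal above its 0 h signal.

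Among 16 targets of cyclic AMP and CREB, 4 were lower in the second hour (Nr4a1, Nr4a2, Dusp1 and Per1), none was higher, and the median was −0.31. Of all genes read, 0.329% were lower and 0.672% higher. All 16 had been listed with their first-hour response known, and all were first-hour risers, so the shares of all genes are not their background. Of the 110 first-hour risers, 9 were lower in the second hour and 11 higher, with a median of 0.08. Sik1, a kinase that restrains CREB coactivators, had signals of 35.6, 669.3 and 481.7, a step of −0.47. Ptgs2, the inducible cyclooxygenase, had 53.2, 501.9 and 360.5, a step of −0.48. Other targets had ratios above 0 without reaching the threshold. Pde4d, a phosphodiesterase that degrades cyclic AMP, had 104.7, 387.8 and 644.1, a step of 0.73, and Pck1, the enzyme of glyceroneogenesis, had 137.3, 702.5 and 976.2, a step of 0.47. Crem, which also encodes the repressor ICER, had 38.9, 78.1 and 116.7, a step of 0.58.

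The promoter windows of 3 genes that fell back are printed because CREB binds the letters TGACG, or the full palindrome TGACGTCA, in the promoters of its targets. Windows run from 250 bases before to 50 after the RefSeq start in the table used (GRCm38.p6), are given 5′ to 3′ on the strand of the gene, and have each match of TGACG on either strand in capitals, so that a match on the other strand reads CGTCA and the palindrome holds 2 overlapping matches. That start need not be the one in use in iBATs. The Nr4a1 window is chr15:101266596-101266895 on the + strand, the Btg2 window chr1:134079106-134079405 on the − strand, and the Dusp1 window chr17:26508423-26508722 on the − strand.
Nr4a1: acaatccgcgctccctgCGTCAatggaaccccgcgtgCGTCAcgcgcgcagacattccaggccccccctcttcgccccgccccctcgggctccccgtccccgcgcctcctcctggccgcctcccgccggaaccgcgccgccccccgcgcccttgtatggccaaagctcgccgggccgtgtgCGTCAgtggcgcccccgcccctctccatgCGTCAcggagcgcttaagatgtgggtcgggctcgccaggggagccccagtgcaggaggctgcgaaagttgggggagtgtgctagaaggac
Btg2: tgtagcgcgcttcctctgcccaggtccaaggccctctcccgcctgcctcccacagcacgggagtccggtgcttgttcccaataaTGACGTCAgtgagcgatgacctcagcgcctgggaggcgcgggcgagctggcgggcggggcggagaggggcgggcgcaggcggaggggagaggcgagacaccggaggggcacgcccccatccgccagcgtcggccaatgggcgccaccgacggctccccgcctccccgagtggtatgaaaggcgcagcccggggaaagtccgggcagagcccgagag
Dusp1: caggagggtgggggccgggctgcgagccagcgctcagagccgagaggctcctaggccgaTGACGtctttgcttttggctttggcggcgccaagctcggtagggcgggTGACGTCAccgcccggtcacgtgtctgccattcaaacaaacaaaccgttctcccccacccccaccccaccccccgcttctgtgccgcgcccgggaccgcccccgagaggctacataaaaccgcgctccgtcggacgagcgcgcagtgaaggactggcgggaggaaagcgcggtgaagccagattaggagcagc
The Nr4a1 window held 4 matches, whose first bases lay 233, 213, 69 and 40 bases before the start. The Btg2 and Dusp1 windows each held the palindrome, 166 and 143 bases before the start. TGACG was present in 20.8% of all 32851 windows in the table and in 39.5% of the 5527 genes read that had a window. Of the 7 genes that fell back and had a window, 6 held it, and Osgin1 did not. It was found in 41 of 75 genes that rose and held (54.7%), in 2 of 5 that kept rising (40.0%), in 7 of 21 that started in the second hour (33.3%) and in 4 of 7 that fell in the second hour only (57.1%). The palindrome was present in 1.79% of all windows and in 3.96% of the genes read with a window. Among the genes that fell back it was in 2 of 7, Btg2 and Dusp1, which are both among the windows printed. It was in 4 of 75 that rose and held, in 1 of 7 that fell in the second hour only, and in none of 5 that kept rising or 21 that started in the second hour.

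The 110 first-hour risers as a whole moved little at the median and spread widely. At 2 h 59 were above and 51 below their 1 h signal, with a median log2 ratio of 0.08 and a range from −1.39 to 1.44. A total of 14 had lost 50% or more of their first-hour rise, and 31 had lost 25% or more. Of the 90 that held, 48 were above and 42 below the 1 h signal. Fos, the AP-1 subunit, lay among the lower ones with 45.3, 224.4 and 140.1, a step of −0.68, and Klf4, a Krüppel-like transcription factor, with 127.6, 466.8 and 307.3, a step of −0.60. Taf7, a subunit of TFIID, had 67.3, 119.4 and 73.8, a step of −0.69 that removed 87.5% of its rise although it missed the threshold. Near 0 lay Cebpb, a C/EBP factor of early adipogenesis, with 2254.0, 4795.9 and 4690.5, and Irs2, an insulin receptor substrate, with 120.3, 999.0 and 921.1. Hilpda, a lipid droplet protein that inhibits lipolysis, lay among the higher ones with 82.2, 293.2 and 480.8, a step of 0.71.

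Regulators of signalling and transcription that held had second steps on both sides of 0. Id2, a further ID protein, had signals of 108.1, 386.3 and 319.6, a step of −0.27, whereas its other probe set gave −1.07. Junb had 19.5, 153.6 and 123.8, a step of −0.31, while Fosl2, another AP-1 subunit, had 225.0, 844.7 and 983.8, a step of 0.22. The AP-1 subunits read thus ran from Fos at −0.68 to Fosl1 at 1.27. Nfil3, a bZIP repressor, had 210.5, 968.2 and 1124.5, a step of 0.22, and Bhlhe40, a repressor of the clock, had 324.2, 1547.3 and 1609.7, a step of 0.06. Gadd45g, a stress sensor, had 243.4, 1585.1 and 1307.1, a step of −0.28, and Ddit4, an inhibitor of mTORC1, had 193.1, 1581.8 and 1485.0, a step of −0.09. Dusp10, another MAP kinase phosphatase, had 85.5, 473.2 and 451.4, a step of −0.07 where Dusp1 had −0.98.

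Inhba, a subunit of activin, had 51.5, 175.8 and 270.1, a step of 0.62 that did not reach the threshold. Cxcl1, a chemokine, had 131.3, 470.3 and 611.4, a step of 0.38, and Thbd, the thrombin receptor thrombomodulin, had 167.2, 676.4 and 943.3, a step of 0.48. Vdr, the vitamin D receptor, had 52.0, 468.7 and 652.5, a step of 0.48. Fgf21, a hormone of brown fat and liver, had 43.3, 123.6 and 149.7, a step of 0.28. Below their 1 h signal were Angptl8, which inhibits lipoprotein lipase with its partners, with 90.9, 199.8 and 145.5 and a step of −0.46, Kcne4, a potassium channel subunit, with −0.41, and Adamts1, a secreted protease, with −0.22. Of the metabolic enzymes, Lpin1, a phosphatidate phosphatase, had 286.3, 641.0 and 812.2, a step of 0.34, and Pdk4 had 620.6, 1729.7 and 2587.5, a step of 0.58.

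The 11 genes that kept rising included secreted signals, enzymes of the matrix and transcription factors. Il6, a cytokine, had the largest rise over both hours among them, from 20.7 before ISO to 406.6 after 1 h and 981.6 after 2 h. Its second step was 1.27, or 2.41-fold. Tnfsf11, the cytokine RANKL, had 9.4, 48.4 and 131.3, a step of 1.44 that became 0.39 with signals under 100 set to 100. Socs2, an inhibitor of growth hormone and cytokine signalling, had 186.1, 358.0 and 714.7, a step of 1.00 after a first step of 0.94. Its other probe set gave 1.13 after a first step of 0.65, which was under the threshold. Each of these genes was thus lowest at 0 h and highest at 2 h.

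Has2 and Uap1, genes of hyaluronan synthesis and its precursors, rose past the threshold in both hours in the probe sets that stand for them. Has2, which synthesizes hyaluronan, had signals of 26.9, 113.9 and 225.5. Its first step of 2.08 became 0.19 with signals under 100 set to 100. The second step was 0.99. Its other probe set gave 1.37, but with 71.5 at 1 h it was kept only through its 2 h signal. Uap1, which makes the precursor UDP-N-acetylglucosamine, had 556.4, 991.4 and 2098.1, a step of 1.08, and its 3 other probe sets gave 1.09 to 1.64. That at 1.09 had 54.2 at 1 h and was kept only through its 2 h signal. The first step of Uap1 was 0.83, just past the threshold. In the sets with second steps of 1.64 and 1.39 it was 0.56 and 0.72, so whether Uap1 started or kept rising depended on the probe set. Ugdh, which makes UDP-glucuronate, the other precursor, had 807.0, 1263.3 and 1941.9, a step of 0.62 that did not reach the threshold. In the list of hyaluronan synthesis and sugar nucleotide supply, 2 of 8 members read were higher, against 0.672% of all genes, none was lower, and the median was 0.32. The other members read had smaller steps, with Ugp2, Cd44 and Gfpt1 at 0.37, 0.27 and 0.17 and Pgm3 and Gnpnat1 at −0.08 and −0.17.

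A further 6 genes kept rising. Fosl1, an AP-1 subunit, had 30.2, 69.8 and 168.6, a step of 1.27 that became 0.75 with signals under 100 set to 100. Adamts4, a protease that cleaves aggrecan, had 34.5, 79.9 and 150.5, a step of 0.91, and its other probe set gave 1.15. That set had 55.0 at 1 h, so both were kept only through the 2 h signal. Zfp516, a zinc finger factor known as an activator of Ucp1, had 58.0, 102.5 and 183.7, a step of 0.84. Tcim, with 70.4, 125.0 and 223.4 and a step of 0.84, Mtcl1, a microtubule cross-linking factor, with 47.5, 84.1 and 163.8 and a step of 0.96, and Pkdcc, a secreted tyrosine kinase, with 88.3, 161.1 and 281.8 and a step of 0.81, were close to the threshold in at least 1 of the 2 hours. The other probe set of Pkdcc gave 0.15. With signals under 100 set to 100, 3 of the 11 kept both calls.

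**Figure D2:**
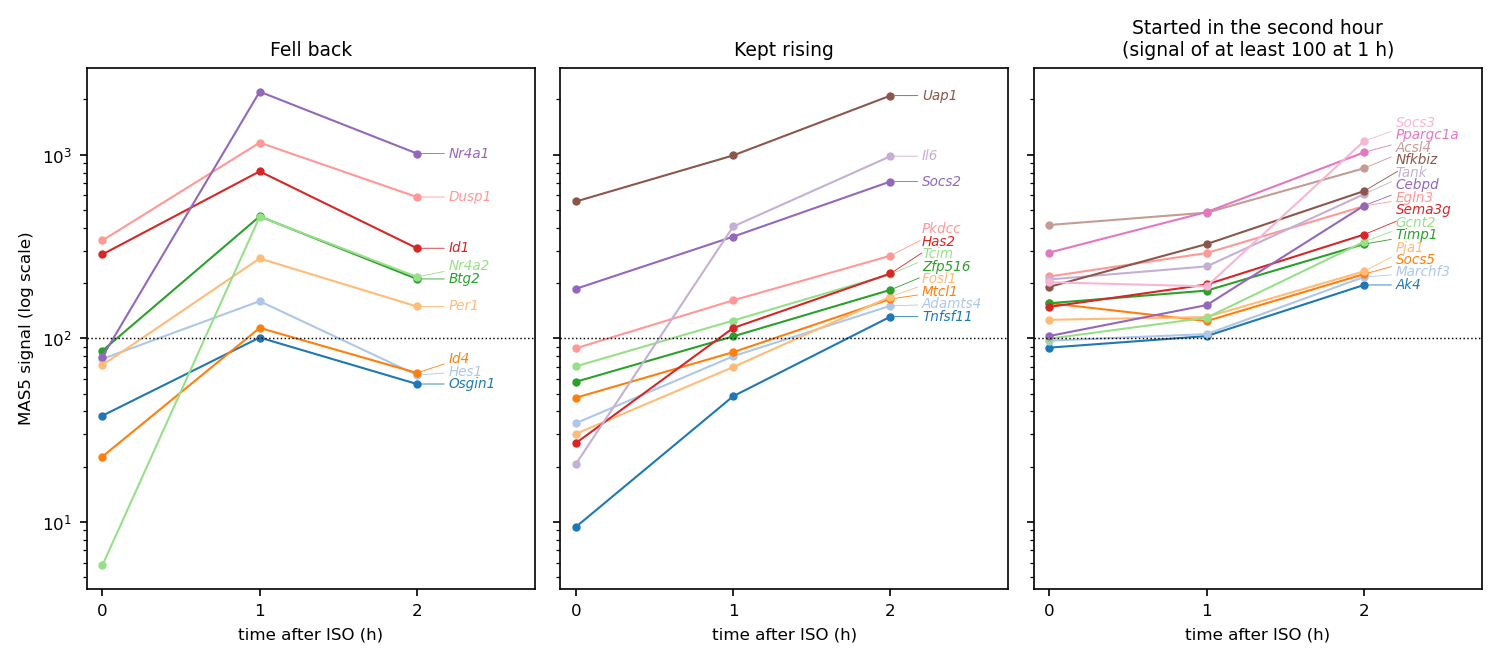
MAS5 signal on a log axis at 0, 1 and 2 h of ISO, 1 line per gene and 1 array per time, for the 9 genes that fell back, the 11 that kept rising and the genes that started in the second hour with a signal of at least 100 at 1 h. The dotted line marks a signal of 100, and the lines of the middle panel rise in both hours while those of the right panel rise past the threshold only in the second.

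Socs3 had the largest rise of the second hour. Socs3 encodes an inhibitor of JAK kinases and of gp130, the receptor subunit that IL-6 shares with related cytokines, and is itself a STAT3 target. Its signals were 202.1, 191.9 and 1186.4, so the first 2 arrays were alike and the third was 6.18-fold above the second, a log2 ratio of 2.63. The 2 other kept probe sets had 27.9, 41.5 and 169.9, and 87.6, 84.0 and 406.8, with second steps of 2.03 and 2.28. Both of these were under 100 at 1 h and were kept through their 2 h signal.

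Cebpd, a C/EBP transcription factor of early adipogenesis and of the acute phase response, had signals of 103.0, 151.8 and 528.0 and a step of 1.80, or 3.48-fold. It has 1 kept probe set. Socs5, a relative of Socs3, had 155.5, 124.2 and 223.8, a step of 0.85. Stat3, the factor that IL-6 activates, had 326.5, 368.8 and 606.6, a step of 0.72 that missed the threshold. In the list of IL-6 family signalling and SOCS feedback, 4 of 14 members read were higher (Il6, Socs2, Socs3 and Socs5), against 0.672% of all genes. None was lower, and the median was −0.05, near that of all genes. Il6st, which encodes gp130, had a ratio of −0.17, the related receptor subunits Lifr and Osmr had −0.23 and 0.30, and the kinases Jak1 and Jak2 had −0.11 and −0.14. The other inhibitors read, Socs4, Socs6, Socs7 and Cish, had −0.14, −0.10, −0.01 and −0.15. The members past the threshold were thus the ligand and some of the inhibitors. In all, 6 members had ratios above 0 and 8 below.

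The targets of STAT3 had a median of 0.59, with 4 of 13 members read higher (Socs3, Cebpd, Timp1 and Lcn2), against 0.672% of all genes, and none lower. Timp1, an inhibitor of matrix metalloproteinases, had signals of 155.3, 182.0 and 326.1, a step of 0.84. Lcn2, an iron-siderophore-binding protein of the acute phase, had 115.9, 90.3 and 158.8, a step of 0.81 that became 0.67 with signals under 100 set to 100. Myc had 213.0 at 1 h and 328.7 at 2 h, a step of 0.63, and Bcl3 had 153.8 and 230.9, a step of 0.59. Fos and Junb, which had risen in the first hour, had −0.68 and −0.31. With the arrays set to the same median, 2 of the 13 were higher.

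The windows of Il6 and Socs3 are printed to set a gene that rose in both hours beside one that rose in the second alone. The Il6 window is chr5:30012864-30013163 on the + strand, with TGACG in capitals, and the Socs3 window is chr11:117969317-117969616 on the − strand, with TTCNNNGAA in capitals, the letters that STAT factors bind, in which N is any base and which read alike on both strands.
Il6: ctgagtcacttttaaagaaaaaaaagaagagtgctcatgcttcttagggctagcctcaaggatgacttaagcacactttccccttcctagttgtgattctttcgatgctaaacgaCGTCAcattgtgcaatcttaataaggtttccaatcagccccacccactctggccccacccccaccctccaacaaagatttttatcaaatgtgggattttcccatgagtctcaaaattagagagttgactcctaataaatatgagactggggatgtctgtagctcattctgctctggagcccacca
Socs3: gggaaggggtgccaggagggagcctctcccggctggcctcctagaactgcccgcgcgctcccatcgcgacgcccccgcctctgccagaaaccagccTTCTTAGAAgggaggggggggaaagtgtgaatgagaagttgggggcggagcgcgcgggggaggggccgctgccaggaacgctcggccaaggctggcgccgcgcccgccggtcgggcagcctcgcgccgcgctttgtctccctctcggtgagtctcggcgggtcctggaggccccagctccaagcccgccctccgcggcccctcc
The Il6 window held TGACG once, 135 bases before the start, and the Socs3 window held TTCTTAGAA, 154 bases before the start, and no TGACG. TTCNNNGAA was present in 8.3% of all windows and in 7.58% of the genes read with a window. It was found in 4 of the 21 genes with a window that started in the second hour (19.0%), which were Socs3, Gcnt2, Rasl11a and Sbno2, in 6 of 75 that rose and held (8.0%), in 1 of 7 that fell back (14.3%), which was Per1, and in none of 5 that kept rising or 7 that fell in the second hour only. A match is a description of the letters, and binding was not measured on these arrays.

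Ppargc1a was the thermogenic gene that rose in the second hour. Its signals were 293.4, 487.6 and 1029.9, a first step of 0.73, just under the threshold, and a second step of 1.08, or 2.11-fold. Its 4 other kept probe sets gave second steps of 1.25 to 1.32, and in 2 of them, at 1.01 and 1.02, the first step was past the threshold as well, so whether it started or kept rising depended on the probe set. Ucp1 had 1485.7, 3673.2 and 4166.1, a second step of 0.18 after a first step of 1.31. Most of the Ucp1 rise thus lay in the first hour, and the larger step of Ppargc1a lay in the second.
The Ppargc1a window, printed for the same letters TGACG, is chr5:51567676-51567975 on the − strand and held 1 match, 49 bases before the start.
Ppargc1a: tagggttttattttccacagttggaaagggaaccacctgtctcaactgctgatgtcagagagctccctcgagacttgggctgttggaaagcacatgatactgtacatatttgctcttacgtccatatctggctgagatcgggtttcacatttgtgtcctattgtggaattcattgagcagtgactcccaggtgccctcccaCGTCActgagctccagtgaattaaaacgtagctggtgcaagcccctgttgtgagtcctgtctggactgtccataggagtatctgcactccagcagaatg

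Among 10 thermogenic genes read, Ppargc1a was higher and none was lower, with a median of 0.23. A further 6 of the 16 on the array did not reach 100 at 1 or 2 h (Dio2, Elovl3, Prdm16, Slc27a2, Lhx8 and Otop1). Ppargc1b, the related coactivator, had a ratio of 0.62 and Cidea, a lipid droplet protein of brown fat, had 0.40. Cox7a1 and Cox8b, subunits of cytochrome c oxidase, had −0.12 and −0.23. Kdm3a, which encodes the H3K9 demethylase JMJD1A, had a step of 0.58, the highest of 8 H3K9 demethylases read, none of which passed the threshold (median 0.08). None of 17 SWI/SNF subunits passed it either (median −0.10). With 0.672% of all genes read higher and 0.329% lower, no call in lists this short is near the share of all genes.

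Inflammatory regulators that started in the second hour included Nfkbiz, an atypical IκB that coactivates NF-kB and STAT3 target genes, with signals of 190.8, 326.3 and 633.9 and a step of 0.96. Its first step was 0.77, just under the threshold. The other probe sets of Nfkbiz gave second steps of 0.56 and 0.57, under the threshold, after first steps of 0.26 and 0.96. With 72.4 and 67.8 at 1 h they were kept only through their 2 h signals. Tank, an adaptor that restrains TRAF signalling to NF-kB, had 209.3, 246.6 and 609.7, a step of 1.31. Cxcl5, a neutrophil chemokine, had 41.1, 61.9 and 135.0, a step of 1.12 that became 0.43 with signals under 100 set to 100. In the list of NF-kB feedback and inflammatory genes, Nfkbiz and Cxcl5 were the 2 of 14 that were higher, against 0.672% of all genes. None was lower, and the median was 0.08. Nfkbia, the classical NF-kB feedback gene, had 955.7, 898.3 and 876.1, a step of −0.04, and Ccl2, a monocyte chemokine, had −0.52.

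Ffar4, the receptor for long-chain fatty acids also known as GPR120, had signals of 66.4, 98.6 and 278.1, a step of 1.50, which was 1.48 with signals under 100 set to 100. Hcar2, the receptor for niacin and β-hydroxybutyrate, which lowers cyclic AMP, had 24.8, 40.7 and 114.3, a step of 1.49 that became 0.19 with the same change. Both were under 100 at 1 h and were read only through the 2 h array. Of 6 metabolite and adenosine receptors on the array 3 did not reach 100, and Ffar2 had a ratio of 0.26.

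Further genes that started in the second hour with at least 100 at 1 h had different roles. Gcnt2, a glycosyltransferase that branches poly-N-acetyllactosamine, had 99.6, 129.6 and 335.7, a step of 1.37. Its other probe set gave 1.98, but with 42.8 at 1 h it was kept only through its 2 h signal. Marchf3, a membrane-bound ubiquitin ligase, had 97.1, 105.5 and 216.0, a step of 1.03. Egln3, a prolyl hydroxylase that marks HIF for degradation, had 217.2, 291.5 and 524.8, a step of 0.85. Sema3g, a secreted semaphorin, had 148.4, 196.5 and 367.5, a step of 0.90, and Ak4, a mitochondrial adenylate kinase, had 89.0, 102.9 and 195.3, a step of 0.92. Acsl4, which activates arachidonic acid, had 414.3, 483.8 and 843.7, a step of 0.80 that was the nearest to the threshold from above. Its other probe set gave 0.60, under the threshold. The step was 0.72 with the arrays set to the same median and 0.78 with quantile normalization. Just outside the threshold were Smim3 at 0.80, under it before rounding, Cog7 at 0.79 and Rab20 at 0.79, all with signals under 100 at 1 h. Smim3 and Rab20 had already risen in the first hour, with first steps of 1.06 and 0.96.

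Some of the largest ratios rested on signals under 100 at 1 h. Ankrd37, an ankyrin repeat protein known as a HIF target, had signals of 21.3, 21.6 and 108.7, a step of 2.33 that became 0.12 with signals under 100 set to 100. Rasl11a, a small GTPase, had 67.7, 43.1 and 191.8, a step of 2.15 that became 0.94. Gli2, a transcription factor of the Hedgehog pathway, had 39.6, 46.4 and 172.9, a step of 1.90 that became 0.79. Map3k12, a kinase upstream of JNK, had 51.4, 35.6 and 102.0, a step of 1.52 that became 0.03. Of the 31 genes that started in the second hour, 17 were under 100 at 1 h, and 17 of the 31 kept both calls with signals under 100 set to 100. The first step of the 31 had a median of 0.23, was below 0 in 9 and was at least 0.5 in 10.

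The remaining genes that started in the second hour had signals between 34.1 and 134.3 at 0 h and of at most 231.6 at 2 h. Sbno2, a transcriptional corepressor induced by IL-10, had 46.4, 67.1 and 152.0, a step of 1.18, and 1.36 in its other probe set. That set had 47.3 at 1 h, so both were kept only through the 2 h signal. Clcf1, a cytokine of the IL-6 family, had 34.1, 58.8 and 109.6, a step of 0.90 that became 0.13 with signals under 100 set to 100. Its first step was 0.79, just under the threshold. Shb, an adaptor of receptor tyrosine kinases, had 35.5, 58.9 and 121.0, a step of 1.04, and Limk1, the kinase of cofilin, had 79.8, 71.9 and 143.3, a step of 1.00. Adam15, a membrane-bound metalloprotease, had 134.3, 87.7 and 179.4, a step of 1.03, so its 1 h signal was the lowest of the 3. Rflna, which binds filamin, had 79.2, 64.4 and 161.3, a step of 1.32, and Fam110c had 43.3, 63.7 and 140.1, a step of 1.14. St3gal1, a sialyltransferase, with 40.5 at 0 h and 51.0 at 1 h, was included by a 2 h signal exactly at the limit of 100. Zxdb, a zinc finger protein, had 64.0, 60.3 and 112.3, a step of 0.90, and Pja1, a ubiquitin ligase, had 126.2, 130.6 and 231.6, a step of 0.83, against 0.09 and 0.51 in its other probe sets.

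**Figure D3:**
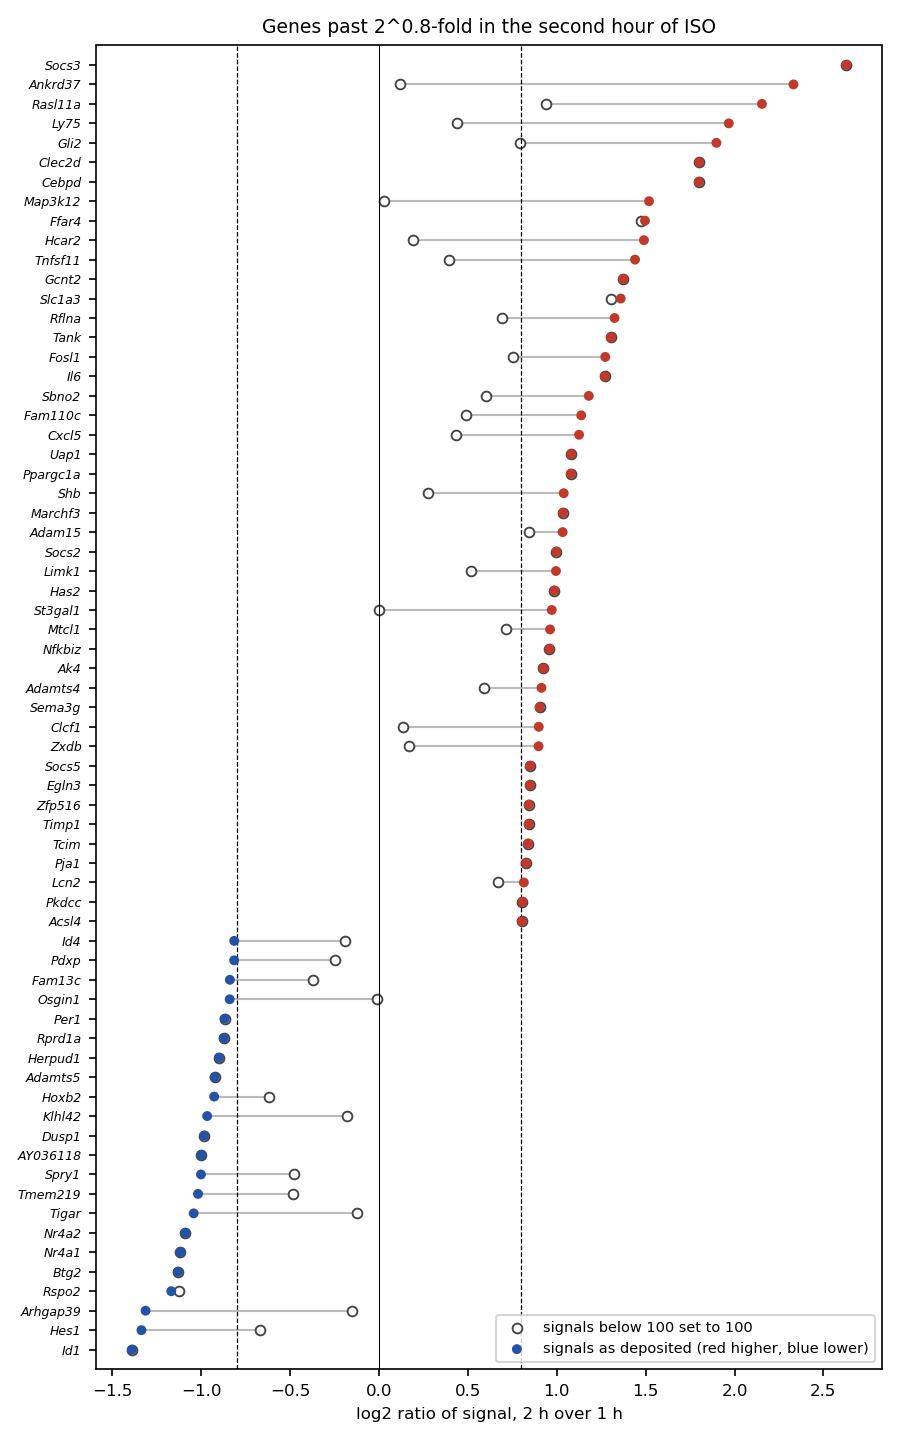
Log2 ratio of MAS5 signal at 2 h over 1 h of the 67 called genes, as deposited (filled points, red for higher and blue for lower) and with signals under 100 set to 100 (open points), with dashed lines at 0.8 in each direction. Socs3, Clec2d, Cebpd and Id1 are the same on both scales, whereas Ankrd37 moves from 2.33 to 0.12.

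The 3 genes that recovered were lower at 1 h and higher again at 2 h. Clec2d, a C-type lectin-like ligand of an inhibitory receptor of natural killer cells, had signals of 769.4, 315.2 and 1098.6, a first step of −1.29 and a second of 1.80. It was read from 1 probe set, and its 2 h signal was above that at 0 h. Slc1a3, a glutamate transporter, had 213.8, 96.2 and 246.8, a second step of 1.36, but its 2 other probe sets gave 0.31 and 0.34, with 1 h signals of 145.5 and 126.0. Ly75, an endocytic receptor, had 61.0, 34.7 and 135.7, a step of 1.97 that became 0.44 with signals under 100 set to 100.

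The other 9 first-hour fallers had second steps below the threshold, and 7 of them were above their 1 h signal at 2 h. Adm, which encodes the vasodilator adrenomedullin, had signals of 274.6, 97.1 and 141.8, a second step of 0.55. Rnd3 had 304.0, 142.5 and 240.1, a step of 0.75, and Cited2, a transcriptional coregulator that competes with HIF, had 584.7, 274.6 and 370.4, a step of 0.43. Ccn1, a secreted matricellular protein, had 381.6, 209.2 and 267.1, a step of 0.35. G0s2, the inhibitor of adipose triglyceride lipase, had 2638.8, 1183.3 and 1104.6, a step of −0.10, and so stayed low. Cdc42ep3, an effector of Cdc42, had 221.2, 117.6 and 74.9, a step of −0.65. All 9 remained below their 0 h signal at 2 h.

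In 13 genes the second hour brought a fall after no step in the first. Adamts5, an aggrecan-cleaving protease related to Adamts4, had signals of 468.5, 358.2 and 188.6, a step of −0.93, with −0.87 in its other probe set. It declined over all 3 arrays while Adamts4 increased over all 3. Rspo2, a secreted enhancer of Wnt signalling, had 242.3, 218.1 and 97.0, a step of −1.17. Spry1, an inhibitor of receptor tyrosine kinase signalling, had 130.2, 139.6 and 69.7, a step of −1.0, and with Dusp1 was 1 of the 2 lower members among 12 MAP kinase phosphatases and Sprouty proteins (median 0.05). Herpud1, a component of the degradation of proteins at the endoplasmic reticulum, had 277.1, 205.8 and 110.2, a step of −0.90, and −0.56 in its other probe set. In the list of matrix proteases and their inhibitors, 2 of 10 were higher (Adamts4 and Timp1) and Adamts5 was lower, with a median of −0.10. The shares among all genes read were 0.672% higher and 0.329% lower.

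The falls of the other genes lay between −1.31 and −0.82. Arhgap39 had 90.9, 111.1 and 44.7, a step of −1.31 that became −0.15 with signals under 100 set to 100. Tigar, a fructose bisphosphatase, had 98.9, 108.8 and 52.8, a step of −1.04 that became −0.12. Tmem219 had 95.8, 139.8 and 69.0, Klhl42 had 125.7, 113.2 and 57.9, and Hoxb2, a homeobox factor, had 171.6, 153.9 and 80.9, all with 2 h signals under 100. AY036118, with 181.4, 224.7 and 112.4 and a step of −1.0, and Rprd1a, a protein that binds the tail of RNA polymerase II, with 268.1, 291.8 and 159.2 and a step of −0.87, stayed at or above 100 on every array. Fam13c, with 82.3, 129.2 and 72.2, and Pdxp, a phosphatase of pyridoxal phosphate, with 120.3, 118.6 and 67.4, had 2 h signals under 100. Just outside the threshold were Csrnp2 at −0.77, Thap7 at −0.76 and Efcab7 at −0.74.

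In the gene groups of core adipocyte metabolism no member passed the threshold in the second hour. Over all genes read only 0.672% were higher and 0.329% lower, so no call in lists of at most 24 genes is near that share. The 17 members read of lipolysis and fatty acid oxidation had ratios from −0.27 to 0.28 and a median of 0.06. Of 16 genes of lipogenesis and triglyceride synthesis none passed, with a median of −0.06. Of 24 genes of oxidative phosphorylation none passed, with a median of −0.11, 20 of them below 0, and of 12 housekeeping genes none passed, with a median of −0.08. Of 17 genes of glucose use, glyceroneogenesis and insulin signalling none passed, with Slc2a1, the glucose transporter GLUT1, at 0.68 and Pdk4, a kinase that inhibits pyruvate dehydrogenase, at 0.58 above and Pik3r1, a regulatory subunit of PI3 kinase, at −0.64 below. Of 23 genes of heat shock and cell stress none passed either, with a median of −0.13.

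Several regulatory groups had members on both sides. For comparison, 0.672% of all genes read were higher and 0.329% lower, so most lists of this size would hold no called gene at that share. Among 19 immediate early genes 1 was higher (Fosl1) and 1 lower (Btg2), with a median of 0.14 that was −0.11 among genes with at least 200 on either array. The call of Fosl1 ended with signals under 100 set to 100. Among 11 genes of the circadian clock Per1 was lower, Cry1, another repressor of the clock, had 0.78 and Per3 had −0.62, with a median of 0.06. None of 13 brakes on cyclic AMP and G proteins passed the threshold (median 0.13), and none of 10 Krüppel-like factors (median −0.13). Tnfsf11 was the 1 higher member of 12 growth factors and other secreted signals read, and Btg2 the 1 lower member of 13 mRNA decay factors. None of 7 cytokine, chemokine and vitamin D receptors passed, with Vdr at 0.48 after a first step of 3.17. Of 9 PGC-1 coactivators and PPAR and ERR receptors Ppargc1a was higher, of 9 adipocyte identity genes Cebpd was higher, and none of 8 preadipocyte and fibroblast markers passed (median −0.07).

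**Figure D4:**
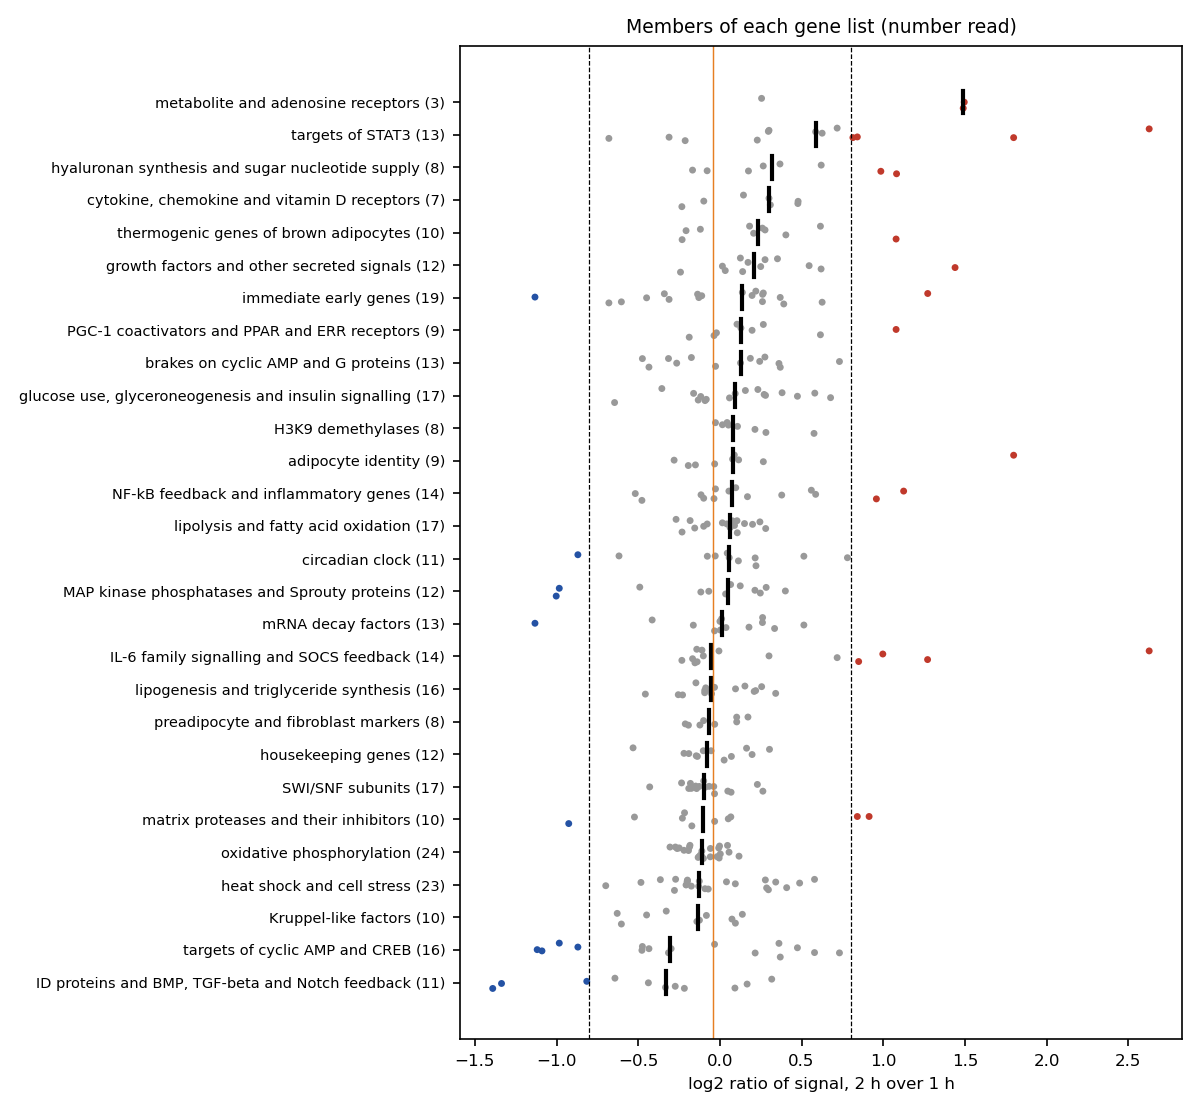
Log2 ratio of MAS5 signal at 2 h over 1 h of each member read, in 28 lists ordered by their medians (black bars), with the number read in brackets, red and blue points past the dashed threshold lines, and the median of all genes as the orange line at −0.04. Targets of STAT3 lie toward the right at a median of 0.59, and ID proteins and targets of cyclic AMP and CREB lie at the left at −0.33 and −0.31.

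The called genes had low signals, with a median of the 2 arrays' mean of 149.1 for the higher and 137.5 for the lower genes, against 287.9 over all genes read. The robust spread of the log2 ratio was 0.34 in the dimmest of 20 bins of signal and 0.12 in the brightest. Of the higher genes 23 of 45 were under 100 at 1 h, and of the lower genes 12 of 22 were under 100 at 2 h, against 6.48% of all genes on 1 of the 2 arrays. With signals under 100 set to 100, 26 of the 45 and 11 of the 22 remained past the threshold. Other kept probe sets of the same gene gave a second reading on the same RNA. The higher genes had 23 of them, of which 10 were under 100 at 1 h and so were kept only through a high 2 h signal. The 13 with at least 100 on both arrays belonged to 7 genes (Acsl4, Pja1, Pkdcc, Ppargc1a, Slc1a3, Socs2 and Uap1), and 7 of the 13 were past the threshold. The lower genes had 6, of which 4 had at least 100 on both arrays and 2 of those were past the threshold.

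**Figure D5:**
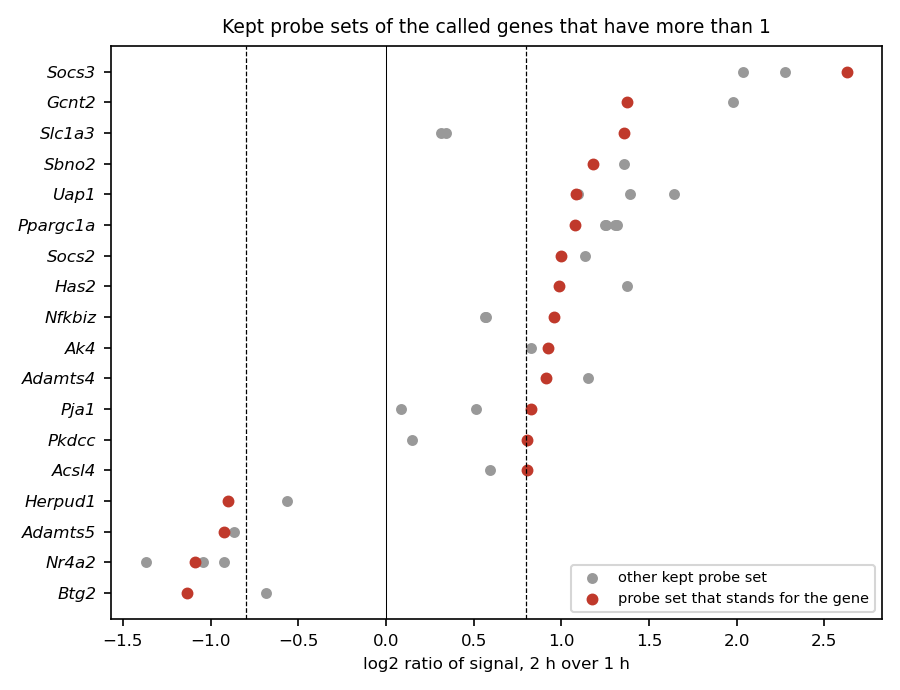
Log2 ratio of MAS5 signal at 2 h over 1 h of every kept probe set of the 18 called genes that have more than 1, with the probe set that stands for the gene in red, the others in grey and dashed lines at 0.8 in each direction. All probe sets of Socs3, Gcnt2, Uap1, Ppargc1a and Nr4a2 lie past a line, whereas those of Slc1a3, Pja1 and Pkdcc lie apart. Of these, the grey sets of Socs3 and Gcnt2, that of Uap1 at 1.09 and those of Nr4a2 at −1.04 and −0.92 were under 100 on 1 array. They were kept only through the array where they were high.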

How the data were processed

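Total RNA of iBATs was measured on 3 arrays, 1 per time of ISO. The authors hybridized labelled cRNA to Mouse Genome 430 2.0 arrays and computed signals with GeneChip software (MAS5 per the labels). The deposited values are linear intensity, scaled so that the mean of each array without 2% of probe sets at each end is 100.0, with the methods' filter on absent calls and low values not applied. The number of arrays limits the precision, and no p-value was computed.

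Of 45101 probe sets, 34958 had 1 gene symbol in the archive's platform annotation, 932 had several and 9211 were unnamed here, and 34754 were matched by gene identifier to RefSeq genes (GRCm38.p6). Of the named ones 10062 had a signal of at least 100 at 1 or 2 h. Ratios were taken with pandas 2.3.3 and numpy 2.4.6 under Python 3.11.15, a signal of 0 was given 0.1, and figures were drawn with matplotlib 3.10.9. The robust spread is 1.4826 times the median absolute deviation. The calculation was tested on simulated data.

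The members, the 31 gene lists and the 12 alternatives were chosen with earlier results of these data known. Named genes are the 15 largest changes in each direction, every gene that kept rising, fell back or recovered, list members past the threshold and up to 3 bright members of a list. Other named genes were chosen with their values in view. The alternatives changed the filter, the treatment of low signals, the scaling (cyclic loess from R 4.3.3 and its package limma 3.58.1), the probe set and the threshold. Some genes are not reported here.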

Additional observations from a re-analysis of the deposited data

How the results depend on the processing

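Of 60 counts recomputed, 32 stayed within 1.5 times the value given and 28 moved further, and no result changed direction in its call. The counts of genes higher, lower, kept rising, started and fell back were 45, 22, 11, 31 and 9. With a signal of at least 100 on both arrays (all 3 for the courses) they were 22, 10, 2, 11 and 2. With at least 200 on either array the first 4 were 22, 11, 6 and 14. With no filter they were 2271, 1967, 300, 795 and 974. With signals under 100 set to 100 the higher, lower and kept rising counts were 26, 11 and 3, and after adding 32 to every signal 28, 10 and 4. At the same median for all arrays 20 genes started. With any kept probe set 76 were higher and 62 started. At 2-fold the counts were 25, 10, 3, 20 and 5. Quantile normalization, cyclic loess, the median over probe sets and the omission of probe sets with shared sequence moved none of the 5 counts past 1.5 times. Under 9 settings of filter, low signals, scaling and probe set, 12 of the 45 (Socs3, Clec2d, Cebpd, Gcnt2, Tank, Il6, Uap1, Ppargc1a, Marchf3, Socs2, Has2 and Sema3g) and 7 of the 22 (Id1, Btg2, Nr4a1, Nr4a2, AY036118, Dusp1 and Adamts5) kept their call in each. Under the 3 scalings alone 35 and 20 did. The median of the immediate early genes was −0.11 with at least 200 on either array, against 0.14. Near the filter, 278 genes had their higher signal between 100 and 110. No paired analysis was possible because each time point has 1 array. Leaving out a replicate was not possible for the same reason.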

Other observations

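Probe sets with no single gene symbol were outside the comparison, and 866 of them had a signal of at least 100 at 1 or 2 h. Of these, 13 were higher at 2 h (1.5%) and 5 lower (0.577%), against 92 (0.914%) and 33 (0.328%) of the 10062 probe sets with 1 symbol. The largest rise among them went from 53.5 at 0 h and 57.6 at 1 h to 172.8 at 2 h, a log2 ratio of 1.58, and the largest fall from 265.7 at 1 h to 110.7 at 2 h, a log2 ratio of −1.26. One unnamed probe set with a signal of 1071.9 at 0 h had 1761.7 at 1 h and 937.4 at 2 h. Their genes were not named here.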
